A study of Mus musculus with 10 samples.

Results

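The genes described here were 8 stress-induced genes, chosen by name in the deposited gene table. They were the GADD45 genes *Gadd45a*, *Gadd45b* and *Gadd45g* and the p53 target genes *Cdkn1a*, *Mdm2*, *Ccng1*, *Sesn2* and *Btg2*. All 8 were found among the 29268 genes of the table, and all 8 passed the filter on low counts that left 16993 genes to test. Uterine RNA had been sequenced from 5 HSD17B1TG and 5 WT females, all aged 4 months, as 1 library from each animal. HSD17B1TG mice are FVB/N mice, heterozygous for a human *HSD17B1* cDNA that is driven in all tissues by a chicken beta actin promoter with a CMV enhancer. The enzyme turns estrone into the stronger estrogen estradiol, and the comparison asks how the uterus of a mouse with constant estrogen stimulation differs from WT before lesions form. HSD17B1TG females do not have estrous cycles, so genotype and cycle phase cannot be told apart. Mice are called TG1 to TG5 and WT1 to WT5 below.

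GADD45 proteins are small nuclear proteins that bind cell cycle and repair proteins such as PCNA and CDK1 and activate the p38 and JNK kinases through MAP3K4. The tumour suppressor p53 is a transcription factor that is held low by the ubiquitin ligase MDM2 and accumulates upon DNA damage and other stress, and *Cdkn1a*, *Mdm2*, *Ccng1*, *Sesn2* and *Btg2* are among its classical target genes. Many of these genes also answer to other signals, such as NF-kB for *Gadd45b*, ATF4 for *Sesn2* and growth factors for *Btg2*. In the uterus, estrogen drives the proliferation of the epithelium, and cell cycle inhibitors such as p21, the product of *Cdkn1a*, counter cell division.

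Each library had 14817228 to 23271988 counts on genes, and 3 counts in the lowest library corresponded to 0.202 CPM, below the level of all 8 genes in every mouse. The uterine transcription factor genes *Hoxa10* and *Hoxa11*, the estrogen receptor gene *Esr1* and the progesterone receptor gene *Pgr* were detected in every mouse, with *Esr1* at 33.9 FPKM ± 4.83 (SD, n = 5) in HSD17B1TG and 34.9 ± 6.50 (SD, n = 5) in WT. The human transgene was not analysed here, so the genotype of each library rests on its label. Levels below are the deposited FPKM, which are counts per gene length scaled by a size factor of each mouse. Fold changes are log2 values of HSD17B1TG over WT from edgeR's quasi-likelihood test on the raw counts, and a gene was called at a Benjamini-Hochberg adjusted p under 0.05.

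The promoters show how the 8 genes differ in p53 elements near the start. RefSeq windows of GRCm38.p6, from 250 bases before to 50 after the transcription start, were searched on both strands for the p53 decamer, the p53 decamer pair (up to 13 bases between decamers, at most 2 mismatches), the NF-kB site, the CArG box, the estrogen response element, the AP-1 site TGANTCA, the CRE TGACGTCA and the ATF4 and C/EBP site TGATGNAA. The TATA box was searched as TATAAA and the GC box as GGGCGG, besides the CCAAT box. The 8 genes had 9 windows, since *Cdkn1a* had 2 starts. A p53 decamer stood in the windows of *Gadd45a*, *Cdkn1a* (start 1), *Mdm2* and *Ccng1*, and in 8.36% of all 32851 windows. The sequences of 3 windows are shown because they hold the p53 decamers of the genes with the highest fold changes, or none in the GADD45 gene that varied most. The windows are those of *Gadd45a* (chr6:67037358-67037657, minus strand), *Cdkn1a* start 1 (chr17:29090729-29091028, plus strand) and *Gadd45g* (chr13:51846425-51846724, plus strand), written 5′ to 3′ along the gene. Capitals mark the p53 decamer in the first, the decamers and decamer pairs in the second, including a decamer with 1 mismatch at the end of a pair, and the ATF4 and C/EBP site and the TATA box in the third.
Gadd45a: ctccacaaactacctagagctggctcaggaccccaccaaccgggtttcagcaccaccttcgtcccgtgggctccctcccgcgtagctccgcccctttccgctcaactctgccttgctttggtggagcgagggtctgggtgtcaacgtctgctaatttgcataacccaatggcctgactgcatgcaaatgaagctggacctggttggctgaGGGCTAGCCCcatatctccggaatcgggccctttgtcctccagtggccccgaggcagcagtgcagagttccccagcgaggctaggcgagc
Cdkn1a: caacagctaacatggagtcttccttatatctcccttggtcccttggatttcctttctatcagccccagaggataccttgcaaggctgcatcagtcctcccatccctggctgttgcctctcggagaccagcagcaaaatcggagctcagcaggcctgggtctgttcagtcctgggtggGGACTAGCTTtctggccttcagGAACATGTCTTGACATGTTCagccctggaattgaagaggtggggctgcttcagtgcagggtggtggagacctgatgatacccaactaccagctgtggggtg
Gadd45g: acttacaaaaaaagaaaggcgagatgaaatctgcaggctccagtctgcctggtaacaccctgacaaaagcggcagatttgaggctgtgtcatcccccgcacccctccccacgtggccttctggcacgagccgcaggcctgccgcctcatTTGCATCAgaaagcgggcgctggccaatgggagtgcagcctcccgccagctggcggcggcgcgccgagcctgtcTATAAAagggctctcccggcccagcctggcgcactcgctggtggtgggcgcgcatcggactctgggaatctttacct

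The *Cdkn1a* window held decamers at -73 (GGACTAGCTT) and -51 (GAACATGTCT) from the start, which made up a decamer pair with 0 mismatches and 12 bases between them. The decamer at -51 also overlapped a second pair without a gap, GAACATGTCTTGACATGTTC, with 1 mismatch. A decamer pair was present in 2.12% of all windows. The single decamers were GGGCTAGCCC at -40 in *Gadd45a*, GAACTTGCCT at -186 in *Mdm2* and GGGCAAGCCT at -185 in *Ccng1*. The second start of *Cdkn1a* and the windows of *Gadd45b*, *Gadd45g*, *Sesn2* and *Btg2* held no match to the decamer. *Gadd45g* had the ATF4 and C/EBP site, read on the minus strand, at -101 (in 3.97% of all windows) and a TATA box at -27. *Gadd45b* had a TATA box at -46, and the TATA box was in 13.6% of all windows. *Btg2* had the CRE at -166, which was in 1.79% of all windows. No window of the 8 genes matched the NF-kB, AP-1, CArG or estrogen response element. A match is a description of the letters, and p53 sites in introns or further upstream lie outside these windows.

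In the HSD17B1TG uterus the cell cycle inhibitor gene *Cdkn1a* was on average 3.03-fold, *Gadd45a* 2.29-fold, *Gadd45b* 1.89-fold and *Btg2* 1.67-fold higher than in WT. *Mdm2* and *Ccng1*, also p53 target genes, differed by 1.12-fold and 1.28-fold, and *Gadd45g* and *Sesn2* were on average lower by 0.40 and 0.05 on the log2 scale. None of the 8 was called by edgeR, which called 3.34% of the 16993 genes as higher and 2.81% as lower. At an unadjusted p under 0.05, 4 of the 8 (*Gadd45a*, *Gadd45b*, *Cdkn1a* and *Btg2*) were higher and 0 lower, and by that rule 14.7% of all genes tested were higher and 11.4% lower. The median log2 fold change of the 8 was 0.55, against 0.00 over all genes tested, where 50% of genes lay between -0.33 and 0.37. The FPKM of the groups overlapped in all 8 genes, and they did not overlap in 6.69% of all genes tested.

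The call of these genes depended on the test and on the mouse WT4. DESeq2, which called 7.31% of its genes as higher, called *Gadd45a* (adjusted p = 0.0209) and *Cdkn1a* (adjusted p = 0.0227). The voom fit of limma with sample weights, which called 11.6% as higher, called *Cdkn1a* (adjusted p = 0.0124) and *Btg2* (adjusted p = 0.0437). Without WT4, edgeR called 7.7% of genes as higher, and *Gadd45a*, *Gadd45b* and *Cdkn1a* were among them. With any other mouse left out, it called 0 of the 8.

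**Figure D1:**
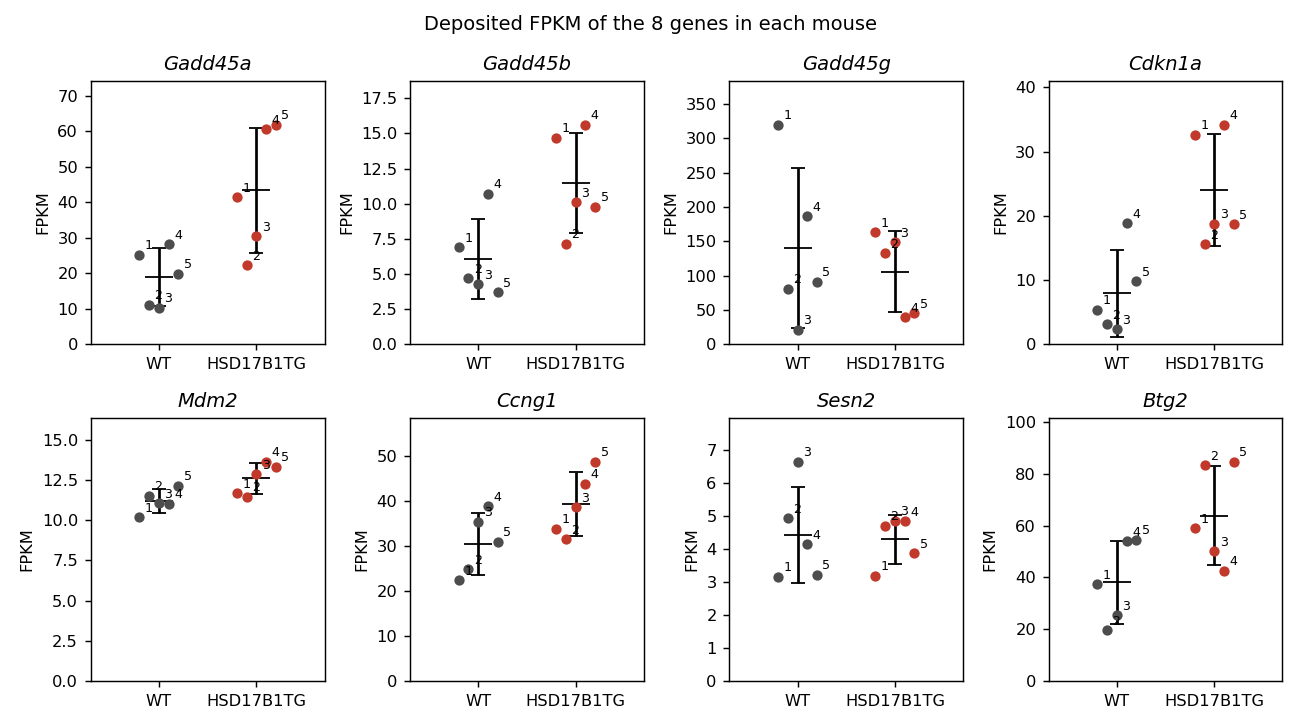
FPKM of each of the 8 genes in the 5 WT mice (grey) and the 5 HSD17B1TG mice (red), with the number of the mouse beside each point; the bar is the mean and its whiskers the SD. The 2 groups overlap in every panel, and WT4 is the highest WT mouse in Gadd45a, Gadd45b, Cdkn1a and Ccng1.

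*Gadd45a* (chr6:67035096-67037457, minus strand) encodes the DNA damage-inducible founding member of its family. Its FPKM were 41.5, 22.3, 30.5, 60.6 and 61.8 in TG1 to TG5 and 25.2, 11.2, 10.3, 28.2 and 19.9 in WT1 to WT5. All HSD17B1TG mice but TG2 lay above every WT mouse, and WT2 and WT3 were the lowest of all. *Gadd45a* had a log2 fold change of 1.19 ± 0.36 (SE), with a 95% interval from 0.40 to 1.98 and an edgeR adjusted p of 0.0678. *Gadd45a* was among the genes that the study singled out in these mice, so this value is not independent evidence of its direction. The antisense transcript *E230016M11Rik* overlaps *Gadd45a* on the opposite strand, at 2.06 FPKM in HSD17B1TG and 1.02 in WT, and reads of the 2 genes cannot be told apart without strand.

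*Gadd45b* (chr10:80930073-80932204, plus strand) encodes the family member known as a target of NF-kB and of TGF-beta. Its FPKM were 14.7, 7.16, 10.1, 15.6 and 9.79 in TG1 to TG5 and 6.91, 4.70, 4.25, 10.7 and 3.72 in WT1 to WT5. TG1 and TG4 lay above all WT mice, and 4 of the 5 WT mice lay below all HSD17B1TG mice, while WT4 exceeded TG2, TG3 and TG5. Its log2 fold change was 0.92 ± 0.33 (SE), with a 95% interval from 0.19 to 1.64 and an edgeR adjusted p of 0.109.

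*Gadd45g* (chr13:51846678-51848468, plus strand) encodes the remaining family member, which is known to inhibit CDK1 and to be induced by cytokines. Its FPKM were 163, 132, 149, 39.2 and 45.6 in TG1 to TG5 and 319, 80.6, 20.9, 186 and 91.2 in WT1 to WT5. The HSD17B1TG mice lay within the range of the WT mice, which spanned 15.3-fold from WT3 to WT1. HSD17B1TG mice formed a higher trio, TG1 to TG3, and a lower pair, TG4 and TG5. The log2 fold change was -0.40 ± 0.63 (SE), with an edgeR adjusted p of 0.734 and a 95% interval from -1.80 to 1.00 that leaves room for a change of either sign. Its direction turned when WT1 was left out (0.13) and in the voom fit (0.10).

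*Cdkn1a* (chr17:29090976-29100727, plus strand) encodes p21, which binds and inhibits cyclin-dependent kinases and arrests cells in G1. Its FPKM were 32.6, 15.6, 18.8, 34.1 and 18.7 in TG1 to TG5 and 5.35, 3.16, 2.37, 18.8 and 9.78 in WT1 to WT5. All HSD17B1TG mice lay above WT1, WT2, WT3 and WT5, while WT4 reached the level of TG3 and TG5. WT mice spanned 7.93-fold and HSD17B1TG mice 2.19-fold. The log2 fold change was 1.60 ± 0.52 (SE), with a 95% interval from 0.45 to 2.76 and an edgeR adjusted p of 0.0854. Without WT4 it was 2.21 with an adjusted p of 0.0131, and with any other mouse left out it lay between 1.34 and 1.72. *AC167363.2*, on the opposite strand of *Cdkn1a*, was at 0.529 FPKM in HSD17B1TG and 0.261 in WT.

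*Btg2* (chr1:134075170-134079120, minus strand) encodes an antiproliferative protein that recruits the CCR4-NOT deadenylase to mRNAs. Its FPKM were 58.8, 83.3, 50.01, 42.5 and 84.7 in TG1 to TG5 and 37.3, 19.7, 25.4, 53.9 and 54.6 in WT1 to WT5. TG1, TG2 and TG5 lay above all WT mice, and TG3 and TG4 lay between WT1 and WT4. On the log2 scale the fold change was 0.74 ± 0.31 (SE), with a 95% interval from 0.05 to 1.43 and an edgeR adjusted p of 0.162.

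*Mdm2* (chr10:117688875-117710758, minus strand) encodes the ubiquitin ligase that marks p53 for degradation and is itself induced by p53. Its FPKM were 11.7, 11.5, 12.9, 13.7 and 13.3 in TG1 to TG5 and 10.2, 11.5, 11.1, 11.03 and 12.2 in WT1 to WT5. *Mdm2* varied least among the mice, with a coefficient of variation of 7.73% in HSD17B1TG and 6.49% in WT. TG3, TG4 and TG5 lay above all WT mice, at a log2 fold change of 0.17 ± 0.10 (SE) with an edgeR adjusted p of 0.332. Scaling by library totals moved the median of all genes tested to -0.17 and *Mdm2* to -0.01.

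*Ccng1* (chr11:40748552-40755311, minus strand) encodes cyclin G1, which brings the phosphatase PP2A to MDM2. Its FPKM were 33.8, 31.4, 38.5, 43.8 and 48.7 in TG1 to TG5 and 22.4, 24.8, 35.4, 38.9 and 30.9 in WT1 to WT5. TG4 and TG5 lay above all WT mice, and WT3 and WT4 lay above TG1 and TG2. *Ccng1* had a log2 fold change of 0.36 ± 0.18 (SE), with a 95% interval from -0.05 to 0.77 and an edgeR adjusted p of 0.243.

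*Sesn2* (chr4:132492032-132510501, minus strand) encodes sestrin 2, a leucine sensor that inhibits mTORC1 through GATOR2. Its FPKM were 3.20, 4.71, 4.86, 4.85 and 3.88 in TG1 to TG5 and 3.16, 4.94, 6.66, 4.15 and 3.22 in WT1 to WT5. The HSD17B1TG mice lay within the range of the WT mice. *Sesn2* had a log2 fold change of -0.05 ± 0.24 (SE), with a 95% interval from -0.58 to 0.48 and an edgeR adjusted p of 0.923, and its sign turned without TG1 (0.05), without WT3 (0.13) and in the voom fit (0.10). *Gm12981*, which overlaps *Sesn2* on the same strand, was at 0.0926 FPKM in HSD17B1TG and 0.381 in WT.

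**Figure D2:**
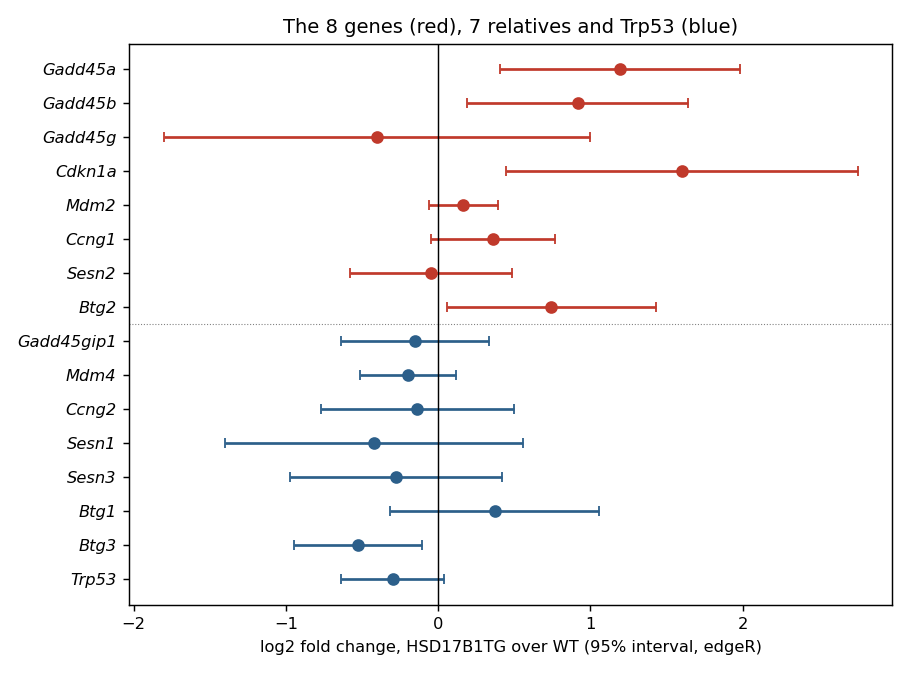
Log2 fold change of HSD17B1TG over WT with its 95% interval from edgeR (x axis) for the 8 genes in red and for 7 of their relatives and Trp53 in blue. Gadd45gip1, counted among the relatives, encodes a protein that binds the GADD45 proteins. The intervals of Gadd45a, Gadd45b, Cdkn1a and Btg2 lie above 0 and that of Btg3 below it, while no gene shown passed the adjusted p of 0.05.

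A two-sided exact permutation test of log2(FPKM + 1) over the 252 assignments of the 10 mice, whose smallest possible p is 0.00794, gave p = 0.0317 for *Gadd45a* and *Cdkn1a* and p = 0.0476 for *Gadd45b* and *Mdm2*. It gave 0.0556 for *Btg2*, 0.0952 for *Ccng1*, 0.841 for *Gadd45g* and 0.944 for *Sesn2* by the same exact permutation. These are 8 single-gene values without adjustment. On log2 CPM the exact permutation p of *Mdm2* was 0.0556.

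In FPKM, which are per length, *Gadd45g* had the highest mean level of the 8 in both groups, followed by *Btg2*, and *Sesn2* had the lowest. The order in HSD17B1TG was *Gadd45g* (105.7), *Btg2* (63.9), *Gadd45a* (43.3), *Ccng1* (39.3), *Cdkn1a* (24.0), *Mdm2* (12.6), *Gadd45b* (11.5) and *Sesn2* (4.30). Within the same mouse, *Ccng1* exceeded *Cdkn1a*, *Cdkn1a* exceeded *Mdm2* and *Gadd45b* exceeded *Sesn2* in 5 of 5 HSD17B1TG mice. The other neighbours changed places between mice, since *Gadd45g* exceeded *Btg2*, *Gadd45a* exceeded *Ccng1* and *Mdm2* exceeded *Gadd45b* in 3 of 5, and *Btg2* exceeded *Gadd45a* in 4 of 5. In WT the means were 139.7 for *Gadd45g*, 38.2 for *Btg2*, 30.5 for *Ccng1*, 18.9 for *Gadd45a*, 11.2 for *Mdm2*, 7.90 for *Cdkn1a*, 6.06 for *Gadd45b* and 4.42 for *Sesn2*. In WT no neighbours in this order kept their places in all 5 mice, and *Mdm2* exceeded *Cdkn1a* in 4 of 5 WT mice.

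**Figure D3:**
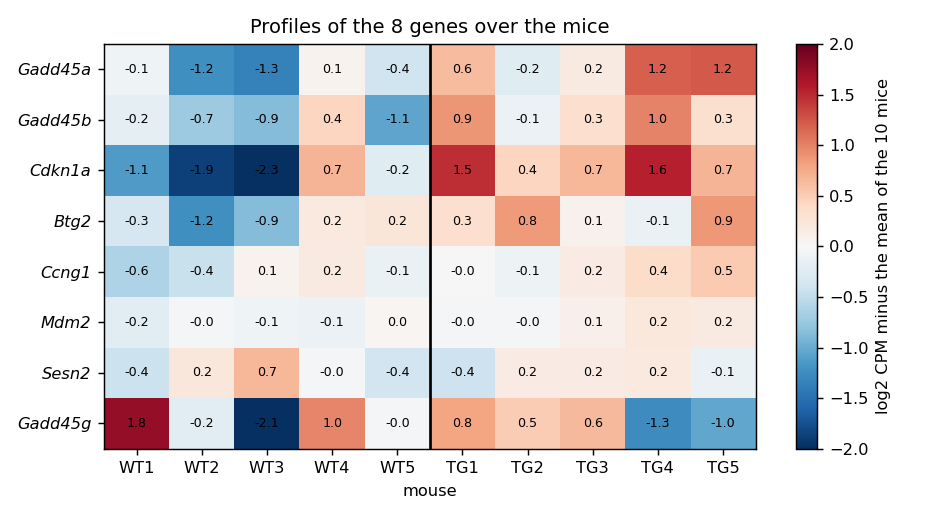
Log2 CPM of the 8 genes (y axis) in each of the 10 mice (x axis) minus the mean of the 10 mice, from blue (lower) to red (higher). Gadd45a, Gadd45b and Cdkn1a were low in WT2 and WT3 and high in TG1 and TG4, while Gadd45g was highest in WT1 and lowest in WT3.

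To see which genes moved together over the mice, the log2 CPM of each gene was centred and scaled over the 10 mice and the root mean square difference between profiles was taken, in SD units. The same difference in genotype runs through all such profiles, so likeness is a description without a test. *Gadd45a* and *Cdkn1a* were the most alike of the 28 pairs (0.499), followed by *Gadd45b* and *Cdkn1a* (0.551) and *Gadd45a* and *Gadd45b* (0.563). *Mdm2* was closest to *Ccng1* (0.722), *Btg2* to *Cdkn1a* (0.719), and *Gadd45g* and *Sesn2* were the least alike (1.83). Among all other genes tested, *Rprm*, which encodes the G2 arrest protein Reprimo and is a p53 target gene, was the closest to *Cdkn1a* (0.177), with 22.8 FPKM in HSD17B1TG and 11.6 in WT. The next closest to *Cdkn1a* were *Exoc3l4* (0.251) and *Sh3d19* (0.270). The closest to *Gadd45a* was *Maff*, a small Maf transcription factor gene (0.284), then *Fam234a* and *Tlr4*, which encodes the receptor for lipopolysaccharide. The closest to *Gadd45b* were *Pcdh15*, *Trac* and *Filip1l*, to *Gadd45g* *Gm48140*, *Gm49425* and *Rps6kl1*, and to *Btg2* *B3gnt8*, *Hsd17b11* and *Lrat*. *Mdm2* was nearest to *Myo7a*, *Pih1d1* and *Nmt2*, *Ccng1* to *Afg1l*, *Ly6a* and *Fnta*, and *Sesn2* to *8430406P12Rik*, *Galm* and *Gata2*.

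Ratios within a library, which no size factor can change, were compared for 6 pairs of the genes chosen after their values were seen. *Cdkn1a* over *Ccng1* was higher in HSD17B1TG by 1.56 on the log2 scale, with 4 of 5 HSD17B1TG mice above all WT mice (two-sided exact permutation test, p = 0.0159). *Cdkn1a* over *Mdm2* was higher by 1.77 (exact permutation p = 0.0317) and *Cdkn1a* over *Btg2* by 1.14 (exact permutation p = 0.0476). After adjustment over the 6 ratios these 3 exact permutation p-values were each 0.0952, and this adjustment does not cover the choice of the pairs. The ratio of *Gadd45a* to *Gadd45g* differed by 1.34, that of *Gadd45b* to *Gadd45g* by 1.11 and that of *Gadd45a* to *Gadd45b* by 0.23, with exact permutation p-values of 0.151, 0.167 and 0.468.

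Most close relatives of the 8 genes had lower average levels in HSD17B1TG. Of 11 relatives tested, 3 were on average higher and 8 lower in HSD17B1TG, 0 were called, and the median log2 fold change was -0.20. Of all 16993 genes tested, 8525 were on average higher. *Gadd45gip1*, a gene of a GADD45-binding protein, was counted among the relatives. *Btg3*, an antiproliferative relative of *Btg2*, had 3.50 FPKM ± 0.213 (SD, n = 5) in HSD17B1TG and 5.02 ± 1.15 (SD, n = 5) in WT, at -0.53 ± 0.19 (SE) with an edgeR adjusted p of 0.113. *Tob2*, of the same family, was at -0.39 (edgeR adjusted p = 0.125) and *Btg1* at 0.37 (0.489). The p53-binding *Mdm4* was at -0.20 (0.421), *Ccng2* at -0.14 (0.805), *Sesn1* at -0.42 (0.588), *Sesn3* at -0.28 (0.619) and *Gadd45gip1*, whose product binds the GADD45 proteins, at -0.15 (0.704), all as log2 fold changes with the edgeR adjusted p in parentheses.

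Among p53 and its regulators, 2 of 13 tested genes were on average higher, 11 lower and 0 called, with a median of -0.28. *Trp53*, the gene of p53 itself, had FPKM of 22.1, 22.2, 31.8, 24.0 and 22.1 in TG1 to TG5 and 35.6, 33.5, 30.3, 23.7 and 26.7 in WT1 to WT5. TG3 alone among the HSD17B1TG mice reached the upper WT levels, and the log2 fold change was -0.30 ± 0.15 (SE) with an edgeR adjusted p of 0.239. The protein level and phosphorylation, at which p53 is mainly regulated, were not measured by these libraries. *Chek2*, a DNA damage checkpoint kinase, was at 0.65 (edgeR adjusted p = 0.142), *Trp53bp1*, which marks DNA breaks, at -0.32 (0.167), and *Rpl11*, a ribosomal protein that binds MDM2, at -0.45 (0.200).

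Of 38 other p53 target genes, 25 were on average higher and 13 lower in HSD17B1TG, their median was 0.21 on the log2 scale, and 3 rose at the adjusted p of 0.05. *Ephx1*, an epoxide hydrolase of detoxification, had 54.9 to 94.6 FPKM in HSD17B1TG and 9.25 to 45.4 in WT without overlap, at 1.40 ± 0.35 (SE; edgeR adjusted p = 0.0445). *Trp53inp1*, a p53-induced pro-apoptotic and autophagy protein, rose by 1.44 ± 0.36 (SE; edgeR adjusted p = 0.0445), from 12.9 to 35.1 FPKM on average. *Apaf1*, the core of the apoptosome, rose by 0.88 ± 0.23 (SE; edgeR adjusted p = 0.0486). *Pmaip1*, which encodes the pro-apoptotic Noxa and was itself singled out by the study in these mice, was at 1.38 (edgeR adjusted p = 0.0645). At an unadjusted p under 0.05, 10 of the 38 were higher, against 14.7% of all genes tested, and 2 lower, against 11.4%, the 2 being *Steap3* at -1.28 and *Ddit4l* at -1.09. The number called was 6 without TG1, 4 without TG3, 5 without WT4 and 0 with any other mouse left out. Over all genes, edgeR called 2094 of 17272 without TG1, 1368 of 17325 without TG3 and 2387 of 17344 without WT4. With any other mouse left out it called 76 to 299 of all genes, so the calls of the list moved with those of all genes.

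**Figure D4:**
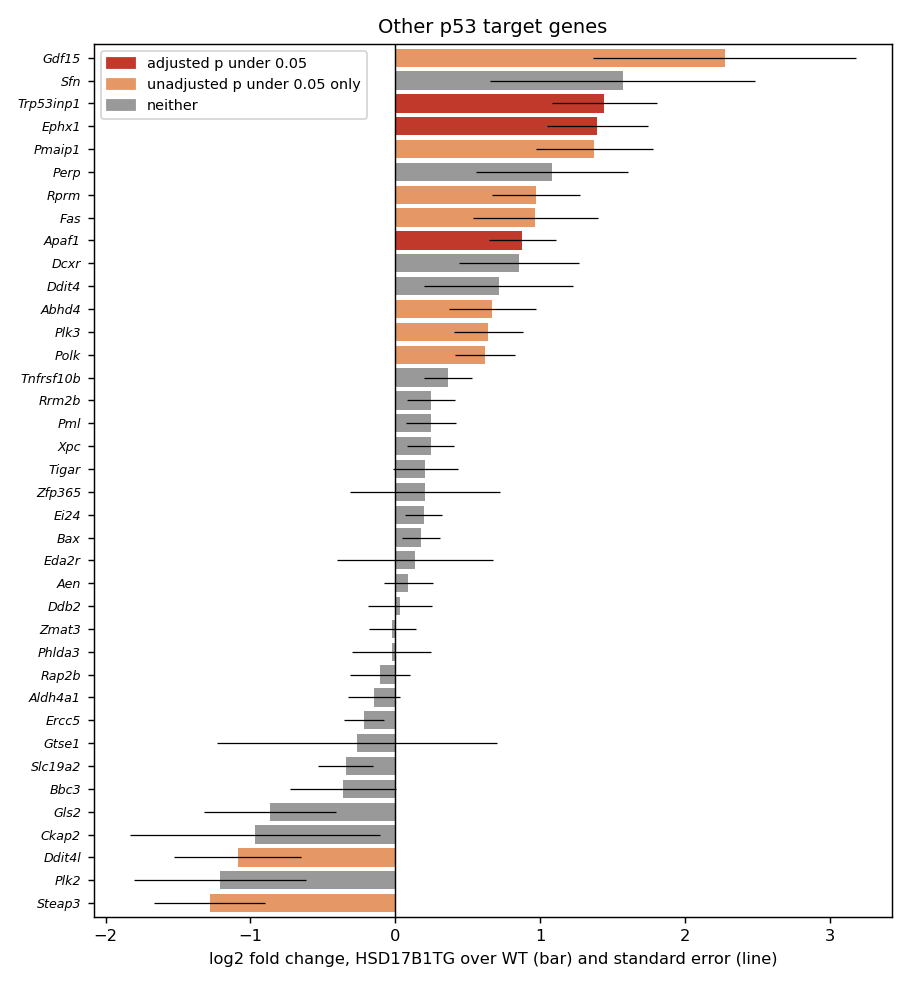
Log2 fold change of HSD17B1TG over WT (bars) with its SE (lines) for the 38 other p53 target genes, ordered by value and coloured by the edgeR p. Of these, 25 bars point to higher levels in HSD17B1TG, and Trp53inp1, Ephx1 and Apaf1 passed the adjusted p of 0.05.

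The lists of genes that work with the 8 were divided in direction. Of 14 partners of GADD45, 7 were on average higher and 7 lower, and the called one was *Map2k6*, the kinase that activates p38, with 12.5 FPKM ± 4.43 (SD, n = 5) in HSD17B1TG and 4.41 ± 1.22 (SD, n = 5) in WT, at 1.496 ± 0.30 (SE; edgeR adjusted p = 0.0256). *Mapk8*, the gene of JNK1, had lower FPKM without overlap, at -0.42 (edgeR adjusted p = 0.0621). Of 18 G1 genes, which encode cyclins, cyclin-dependent kinases, other inhibitors of these kinases, the retinoblastoma family and E2F1, 7 were higher and 11 lower, and *Ccnd2*, the gene of cyclin D2, fell by 1.32 on the log2 scale (edgeR adjusted p = 0.0274). *Cdk6*, a partner kinase of the D cyclins, was at 1.53 (edgeR adjusted p = 0.0511), the kinase inhibitor gene *Cdkn2b* at 1.56 (0.150) and *Cdk4* at -0.49 (0.152). Of 16 sestrin partners in GATOR and AMPK signalling, 8 were higher and 8 lower with 0 called, and *Mtor* had lower FPKM without overlap, at -0.37 (edgeR adjusted p = 0.0756). Of the 12 subunits of the CCR4-NOT deadenylase, to which BTG2 binds, 7 were higher and 5 lower, and 0 reached an unadjusted p of 0.05. With 1 of TG2, TG4, TG5, WT2, WT3 or WT5 left out, 0 genes of these 4 lists were called. Without TG3, 5 GADD45 partners and 5 G1 genes were called, and without WT1, 0 GADD45 partners and 1 G1 gene. Without TG1, 2 GADD45 partners were called, and without WT4, 3. Of all genes, 2094 were called without TG1, 1368 without TG3, 299 without WT1, 2387 without WT4 and 76 to 171 without another mouse.

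Genes of other stress responses were tested in the same fit. Of 18 NF-kB response genes tested, 16 were on average higher and 2 lower, with a median of 0.65 against 0.00 over all genes, and *Nfkbiz*, a nuclear IkB protein, rose by 1.38 ± 0.31 (SE; edgeR adjusted p = 0.0348). The feedback inhibitor *Nfkbia* had 89.3 to 198 FPKM in HSD17B1TG and 34.2 to 83.3 in WT without overlap, at 1.13 (edgeR adjusted p = 0.0529). Of 17 integrated stress response genes, 11 were higher and 6 lower, the serine synthesis gene *Phgdh* fell by 2.57 (edgeR adjusted p = 0.0256), and *Atf3* was at 2.003 (edgeR adjusted p = 0.0522). Of 17 immediate early genes, 9 were higher and 8 lower, *Jund* rose by 0.81 (edgeR adjusted p = 0.0390) and *Myc* fell by 1.25 (edgeR adjusted p = 0.0498). With 1 of TG2, TG4, TG5, WT2, WT3 or WT5 left out, 0 genes of these 3 lists were called. Without TG1, 6 NF-kB response genes were called, without WT4 2 and without WT1 0, and integrated stress response genes numbered 3 without TG1, TG3 or WT4. The same fits called 2094 of all genes without TG1, 1368 without TG3, 2387 without WT4 and 299 without WT1. Of 20 proliferation genes, 19 were on average lower and 1 higher with 0 called, and their summed FPKM was 579 in TG3 and 32.5 to 56.9 in the other HSD17B1TG mice, against 79.9 to 276.0 in WT. The levels of *Cdkn1a* in TG3 (18.8) and of *Gadd45a* (30.5) lay within the range of the other HSD17B1TG mice. Without TG3, 19 proliferation genes were called, and the log2 fold changes of *Cdkn1a* and *Gadd45a* were 1.65 and 1.27.

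Marker levels of several cell types differed between the groups, and in bulk RNA fewer cells of a type and less RNA per cell cannot be told apart. The summed FPKM of 14 epithelial markers was 764.5 to 3582 in HSD17B1TG and 536 to 1835 in WT (exact permutation p = 0.0556, two-sided), with 13 of 14 on average higher, 0 called and no marker absent in all mice. Without TG1, 6 epithelial markers were called as higher, and without WT4, 5. Of all genes, 1249 of 17272 were called as higher without TG1 and 1335 of 17344 without WT4. WT4, the WT mouse with the highest *Gadd45a*, *Gadd45b* and *Cdkn1a*, also had the highest epithelial sum of the WT mice. TG1, which lay above all WT mice in these 3 genes, had the lowest epithelial sum of the HSD17B1TG mice. The summed FPKM of 11 smooth muscle markers was highest in TG1 (7703), WT4 (6015) and TG4 (3261), and these were also the 3 mice with the highest FPKM of *Gadd45b*. TG4 and TG1 were the highest in *Cdkn1a* too, followed at nearly equal FPKM by WT4 (18.82), TG3 (18.77) and TG5 (18.68). *Gadd45a* was highest in TG5, the HSD17B1TG mouse with the lowest smooth muscle sum. The smooth muscle sum was 924 to 2628 in TG2, TG3 and TG5 and 452 to 2183 in the WT mice other than WT4. Of the smooth muscle markers, 0 were called. Mitochondrial genes took 5.74%, 6.87% and 7.57% of the counts in TG1, TG4 and TG5, the HSD17B1TG mice with the highest *Gadd45a* levels, against 1.94% in TG2, 2.49% in TG3 and 2.58% to 3.37% in WT. The part of these marker and mitochondrial levels in the levels of the 8 genes was not tested.

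**Figure D5:**
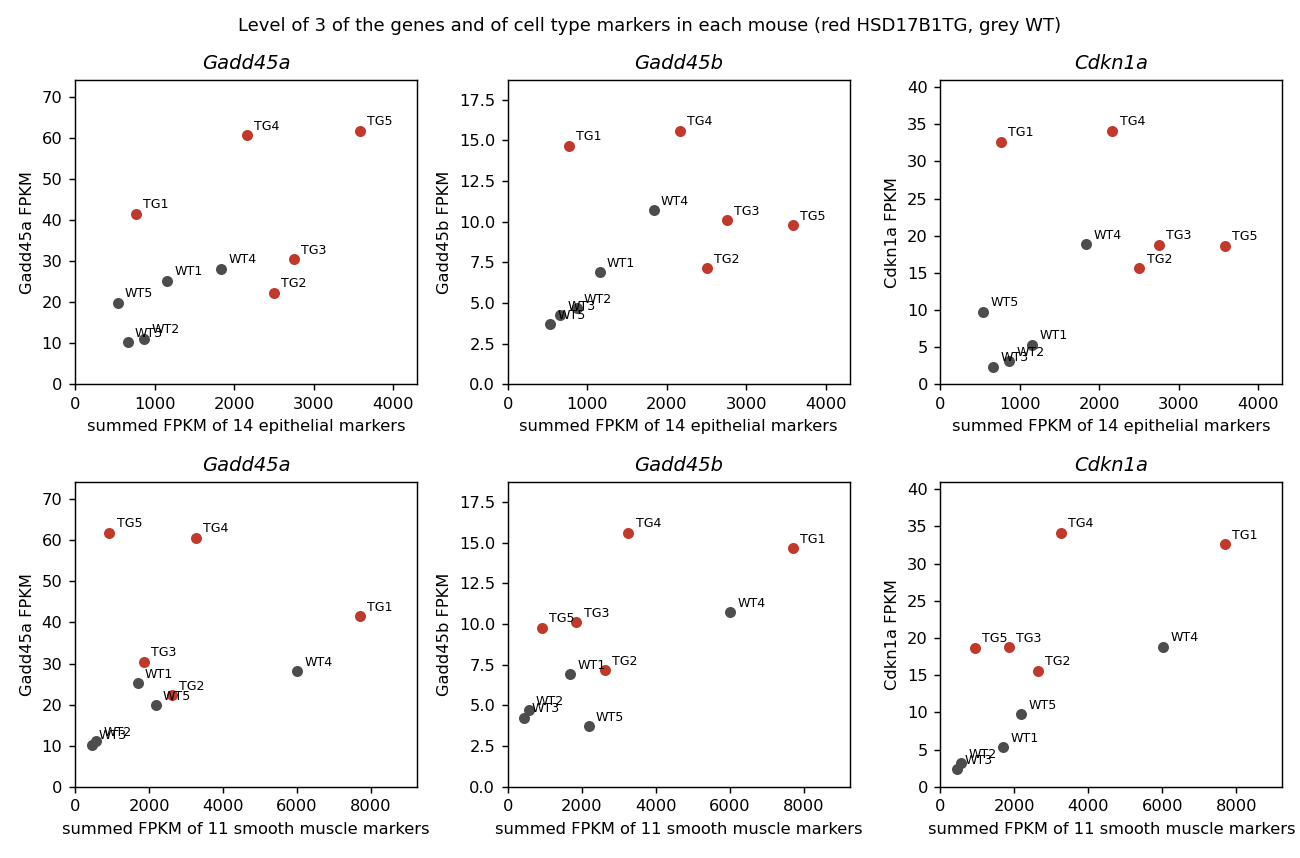
FPKM of Gadd45a, Gadd45b and Cdkn1a (y axes) against the summed FPKM of 14 epithelial markers (upper x axes) and of 11 smooth muscle markers (lower x axes) in each mouse, HSD17B1TG in red and WT in grey. TG1 and WT4 have the highest smooth muscle sums, 7703 and 6015, TG1 has the lowest epithelial sum of the HSD17B1TG mice (764.5), and WT4 has the highest epithelial sum of the WT mice (1835).

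Markers of other cell types were summed in the same way. Stromal markers summed to 633 to 2377 FPKM in HSD17B1TG and 2138 to 2749 in WT, and 6 of 12 fell. The stromal markers called numbered 1 without TG2 or WT5, 2 without TG4, WT2 or WT3, 4 without TG3 or WT1, 7 without TG1 or WT4 and 0 without TG5. Natural killer and cytotoxic lymphocyte markers summed to 2.81 to 12.5 and 17.5 to 134.0, and 6 of 9 tested fell, with 2 called without TG4, TG5, WT1, WT2, WT3 or WT5 and 5 to 8 without another mouse. Macrophage and leucocyte markers summed to 299.7 to 491 and 183 to 299.97, and of 10 tested 6 were on average higher and 4 lower, while 3 rose (*Cd68*, *Itgam* and *Laptm5*). The pan-leucocyte marker *Ptprc* was at -1.08 (edgeR adjusted p = 0.0558). Markers called as higher numbered 4 without TG1, 3 without TG3 or WT4, 1 without WT1 and 0 without any other mouse, and without WT4 1 was called as lower. Neutrophil markers summed to 9.67 to 16.9 and 0.864 to 5.61, with *Retnlg* and *Camp* at no more than 3 counts in every mouse. Of the 9 neutrophil markers, 4 passed the filter on low counts, and 0 were called, also with any mouse left out. Endothelial markers summed to 31.7 to 114 and 72.3 to 183, and B and plasma cell markers to 44.0 to 180 and 21.0 to 259, with 0 called in both. Without TG1 and without WT4, 4 and 3 endothelial markers were called as lower, and 1 B and plasma cell marker as higher in each case. Over all genes, the fits with 1 mouse left out called from 76 (without TG5) to 2387 (without WT4). The lactotransferrin gene *Ltf*, a classical estrogen-induced gene of the uterine epithelium, rose by 4.07 on the log2 scale (edgeR adjusted p = 0.0374), a call kept without TG1, TG3 or WT4 and lost without any other mouse (adjusted p up to 0.0933), and *Pgr* was at -0.70 (edgeR adjusted p = 0.298).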

How the data were processed

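Uterine mRNA of 5 HSD17B1TG and 5 WT mice was sequenced paired-end. According to the submitters' processing notes and the methods, reads were mapped with HISAT2 2.0.5 to the mouse genome (Ensembl 94, GRCm38) and DESeq2 was run; the counter and whether it used strand are not given in the sources used here. The deposited table holds the raw counts, a signal that the authors made by dividing counts by a size factor, and the deposited FPKM, scaled by the same factor. Deposited columns and tables with the fold change, p-value and enriched terms of the authors' own comparison were not used.

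The genotype in the labels set the groups, and replicates were numbered in accession order. Replicates were compared and differed by far more than counting noise. Total counts were 14817228 to 23271988 per mouse, and limits from 3 counts cover counting error only. The test was edgeR 4.0.16 in R 4.3.3 (filterByExpr, TMM, quasi-likelihood test, Benjamini-Hochberg adjustment over 16993 genes). The SE is the log2 fold change divided by the root of the F statistic. Single genes and ratios were tested with two-sided exact permutation tests (scipy 1.17.1). Alternatives were DESeq2 1.42.0, voom with sample weights (limma 3.58.1), RLE factors, library totals, no filter on low counts and each mouse left out (for the cell type markers, this was added after the data were seen); for the permutation test, a pseudocount of 0.1 and log2 CPM. The fits were run on simulated counts with 200 changed genes and the same dispersion for every gene. Such counts cannot show which test is right where edgeR, DESeq2 and voom differ. Promoter windows are RefSeq's (GRCm38.p6), and overlaps come from GENCODE M21, in which the 8 genes have the coordinates of the deposited table.

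The genes named are the 8, 7 relatives and *Trp53*, *Esr1*, *Pgr* and *Ltf*, at most 4 genes of smallest p per list, and the 3 genes of most similar profile to each of the 8. *Steap3*, *Ddit4l*, *Retnlg*, *Camp* and the overlapping transcripts were named after their values were seen. The 8 genes, the lists and the tests were chosen with earlier results of these data known.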

Additional observations from a re-analysis of the deposited data

Results flagged for a closer look

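In groups of 5 mice, 32 groups of values (the 8 genes, *Trp53* and the 7 relatives *Mdm4*, *Gadd45gip1*, *Ccng2*, *Sesn1*, *Sesn3*, *Btg1* and *Btg3*, each in HSD17B1TG and in WT) were searched for a mouse far from the other 4 by Dixon's criterion, and 3 were found; chance gives about 1 in 20 groups. *Trp53* in TG3 was at 31.84 FPKM, while the other HSD17B1TG mice were at 22.1 to 24.0. *Mdm4* in WT5 was at 19.37 FPKM, while the other WT mice were at 13.2 to 14.9. *Btg3* in WT4 was at 3.04 FPKM, while the other WT mice were at 5.28 to 6.03. No value of the 8 genes themselves stood apart from its group in this way.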

How the results depend on the processing

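No paired analysis was possible because the labels give no replicate numbers that the groups share. *Gadd45a*, *Gadd45b*, *Cdkn1a*, *Btg2* and *Ccng1* kept a positive log2 fold change under all 15 alternatives to the edgeR fit. The sign turned for *Gadd45g* (0.097 with voom, and -0.71 to 0.13 with single mice left out) and *Sesn2* (0.10 with voom, and -0.17 to 0.13 with single mice left out). Library totals moved the median of all genes tested from 0.00 to -0.17, and *Mdm2* moved with it from 0.17 to -0.012, so its changed sign follows from that common shift. Of the 8 genes, edgeR called 0, voom 2 and DESeq2 2, and edgeR called 0 to 3 with single mice left out. The cause was not tested; the fits with 1 mouse left out called 76 to 2387 of all genes, against 1046 with all mice, and the calls of the lists moved with them.

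DESeq2 called 7 of the 38 listed other p53 targets, 3 of 14 GADD45 partners and 2 of 18 G1 cyclins and kinases. Of 15 p53 regulators and of 16 sestrin partners it called 1 each. It called 6 of 17 integrated stress response genes and 8 of 20 NF-kB response genes. Over all 21712 genes with an adjusted p, DESeq2 called 2811. With library totals, edgeR called 1195 of 16993 genes. Library totals gave 2 GADD45 partners, 1 sestrin partner and 1 immediate early gene, and medians of 0.044 for other p53 targets, -0.19 for sestrin partners, -0.16 for CCR4-NOT subunits and 0.20 for integrated stress response genes. With single mice left out, calls ranged from 0 to 6 for other p53 targets and for NF-kB response genes, 0 to 5 for GADD45 partners and for G1 cyclins and kinases, 0 to 3 for integrated stress response and for immediate early genes, 0 to 19 for proliferation genes (19 without TG3), and 0 to 1 for relatives, p53 regulators, sestrin partners and CCR4-NOT subunits. The median of the integrated stress response then ranged from 0.23 to 0.40 and that of proliferation from -2.46 to -0.12.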
